A study of Homo sapiens with 36 samples.

Results

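The nuclear genes for subunits of the mitochondrial respiratory chain were followed across parental and sunitinib-resistant kidney cancer cells. Members were the protein-coding genes of the count table whose current symbol begins with NDUFA, NDUFB, NDUFC, NDUFS or NDUFV (complex I), UQCR (complex III), COX4I or COX5 to COX8 (complex IV), or ATP5F1, ATP5M or ATP5P (complex V). Names beginning NDUFAF, which mark assembly factors, and NDUFA4L2 were left out. This gave 84 genes of the 45478 gene identifiers in the table, 18749 of them protein coding. By the roles known for their products, 37 belong to complex I, 9 to complex III, 18 to complex IV and 18 to complex V, and 2 are readthrough genes that run on into a neighbour. The rule used gene names only and no measured value.

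Polyadenylated RNA was sequenced from 786-O and A498, both human cell lines derived from clear cell renal carcinoma, each as parental cells and as cells selected with rising concentrations of sunitinib, an inhibitor of receptor tyrosine kinases, until they grew at 2 µM (A498) or 4 µM (786-O). All groups, the parental ones included, had spent 24 h with an antibody against PD-L1 (atezolizumab, avelumab or durvalumab, at 10 mg/mL as the labels write it), so that 12 groups of 3 libraries form 4 cell states of 9. Untreated libraries were not analysed here, and whether sunitinib was present during the antibody treatment is not given in the sources used here. Each of the 4 states has its own batch label. Neither resistance nor cell line can therefore be told apart from batch, while the antibodies of a state share 1 batch. Nothing in the labels ties the 3 libraries of a group to separate cultures, so a p-value reflects how far these samples scatter and nothing more, and that scatter may be technical.

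The respiratory chain passes electrons from NADH through complex I, and from succinate through complex II, to complex III, cytochrome c and complex IV, where oxygen is reduced. Complexes I, III and IV pump protons across the inner mitochondrial membrane, and complex V, the ATP synthase, lets them back through its c-ring to drive the catalytic F1 head. A few core subunits are encoded in mitochondrial DNA, and all others are nuclear. The genes described here are nuclear, but the naming rule leaves out complex II and CYC1, a subunit of complex III. Clear cell renal carcinoma usually lacks functional VHL, which stabilises hypoxia-inducible factors, and is known for high glycolysis and low respiration.

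Library totals ran from 19994882 to 58122896 counts. Levels are CPM, counts scaled to the raw total of a library (the usual CPM unit), and changes are log2 differences ± SE from edgeR's quasi-likelihood fit with TMM scaling, called at a Benjamini-Hochberg adjusted p under 0.05 over all genes tested. With library totals as the only scaling, the median of all 19369 genes tested in 786-O moved from 0.03 to 0.14 and the median of the members from -0.28 to -0.17, so changes are best read against those medians. In bulk libraries, fewer cells that express a gene and less RNA per cell cannot be told apart. The summed renal marker list, which also holds KRT8, KRT18 and VIM, ran from 4420 to 8386 CPM over all libraries. Of its 8 genes, 7 had a median of at least 1 CPM in A498 parental libraries and 6 in each of the other 3 states. PAX8, a kidney lineage factor, had medians of 227 to 296 CPM. Summed leukocyte markers stayed between 0.256 and 3.35 CPM and summed endothelial markers between 0 and 0.833 CPM. The summed fibroblast list, mostly COL1A1, was 50.2 to 61.7 CPM in A498 parental libraries and 1.54 to 5.79 CPM in the other 3 states. CA9, a classical marker of clear cell tumours, had medians near 0 in every state except A498 parental, with 1.24 CPM. Mitochondrially encoded mRNAs made up 2.26% ± 0.125 (SD, n = 9) of counts in A498 parental, 1.69% ± 0.212 in A498 resistant, 1.61% ± 0.183 in 786-O parental and 2.07% ± 0.235 in 786-O resistant.

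Several limits bear on single members. The libraries labelled A498 resistant lay closer to 786-O resistant than to A498 parental for 55 of the 74 members with a mean of at least 1 CPM. They lay closer to 786-O parental than to A498 parental for 46 of those members. The median absolute log2 difference was 0.14 to 786-O resistant, 0.19 to 786-O parental and 0.30 to A498 parental, so the line of these 9 libraries is in doubt and they are called the libraries labelled A498 resistant. Among the 786-O resistant libraries, durvalumab replicate 2 had the highest and durvalumab replicate 1 the lowest summed level of all members, 7264 and 6162 CPM. The strand setting of the counting is not given in the sources used here, and 34 of the 84 members have another gene over 10% or more of their exons, so their values are uncertain. NDUFV2, NDUFA7, NDUFA13 and NDUFB8 had means of only 0.2, 0.17, 1.29 and 3.78 CPM and all have such overlaps. UQCRHL is a near copy of UQCRH, and reads may have been split between them.

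Of the 84 members, 76 passed the low-count filter in the 786-O comparison and 75 in the A498 comparison. Many of the members left out were complex IV forms known mainly from other tissues, but NDUFC2-KCTD14, also left out, is a readthrough gene. NDUFV2 and NDUFA7, complex I subunits with low counts, were left out of the A498 comparison only. COX4I2, COX6A2, COX7A1, COX7B2 and COX8C, tissue-specific forms of complex IV subunits, and ATP5MGL were at or near 0 in all states. In CPM per kilobase of the principal transcript, ATP5F1B, the catalytic beta subunit of the ATP synthase, was the highest member in 786-O parental libraries at 496, followed by COX4I1 at 445 and UQCRH at 302. In A498 parental libraries COX4I1, the largest nuclear subunit of complex IV, was the highest at 521, with ATP5F1B at 383.

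In 786-O, most subunit genes were lower in sunitinib-resistant than in parental cells. Averaged over the antibodies, 58 of the 76 members tested fell (76.3%) and 7 rose (9.21%), where 40.2% of all genes tested were lower and 43.6% were higher. The median change was -0.28 for the members and 0.03 for all genes. Under atezolizumab 55 fell and 3 rose (35.3% and 36.6% of all genes), under avelumab 58 and 2 (35.6% and 37.6%), and under durvalumab 47 and 9 (34.6% and 36.7%). The fall was called under each of the 3 antibodies for 46 members, which holds for 29.6% of all genes, and the rise for 1, NDUFA13, against 30.3% of all genes. For 33 members that fell, the 9 resistant and 9 parental libraries did not overlap in CPM, compared with 20.6% of all genes, and for 4 that rose, compared with 32.4%.

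The counts were alike for members with and without overlapping neighbours. Of the 45 tested members with under 10% exonic overlap, 34 fell and 5 rose, with a median of -0.28, and of the 31 with more, 24 fell and 2 rose, with the same median. With library totals only, 52 fell and 12 rose in 786-O. The shares of all genes called under that scaling, or without single libraries, are not given. Without 786-O resistant durvalumab replicate 1, 58 fell and 11 rose, and without replicate 2, 61 fell and 8 rose. The 9 rises under durvalumab became 13 without resistant durvalumab replicate 1, and 5 without resistant durvalumab replicate 2, resistant durvalumab replicate 3 or parental durvalumab replicate 3. The summed level of all members was 7632 ± 149 CPM (SD, n = 9) in parental and 6574 ± 318 CPM in resistant 786-O libraries, a change of -13.9%. Over TMM library sizes, the scaling of the tests, the sums were 8109 and 6388 CPM, a change of -21.2%. The highest resistant library, at 7264 CPM, stayed below the lowest parental library, at 7382 CPM.

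**Figure D1:**
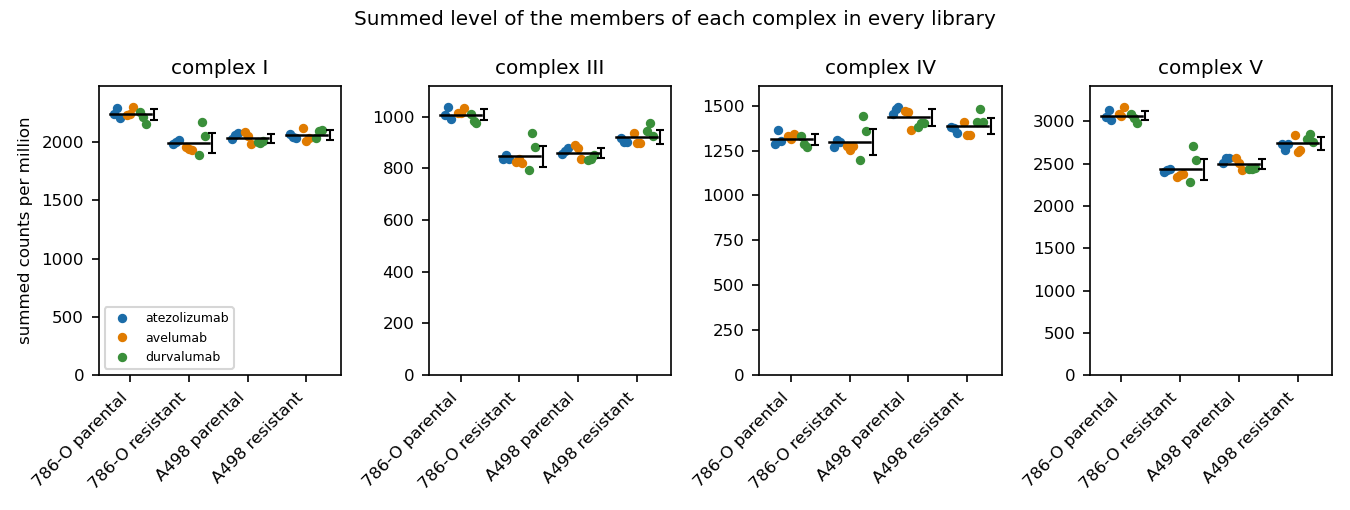
Summed CPM of the members by complex, with a dot for each of the 36 libraries coloured by antibody, a black line for the mean of the 9 libraries of a state and a bar for the SD. Complex V fell from a mean of 3067 to 2431 CPM between parental and resistant 786-O libraries, whereas complex IV had 1314 and 1298 CPM over raw totals, a gap of -1.24% that was -9.68% over TMM library sizes.

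The fall was unequal across the chain. Complex V lost most, with a change of -20.7% in summed level between parental and resistant 786-O libraries, followed by complex III (-15.9%) and complex I (-10.9%), while complex IV differed by -1.24%. Over TMM library sizes, added after the data were seen, the order was the same and the changes larger, -27.5% for complex V, -23.1% for complex III, -18.5% for complex I and -9.68% for complex IV. Of all counts that fell on members, complex V held 40.2% ± 0.13 (SD, n = 9) in parental and 37.0% ± 0.187 in resistant libraries, and complex IV 17.2% ± 0.145 and 19.7% ± 0.192. Neither share overlapped between the 9 and 9 libraries, since complex V ran from 39.9% to 40.3% and from 36.6% to 37.2%, and complex IV from 16.9% to 17.4% and from 19.4% to 19.9%. These shares do not depend on the scaling between libraries.

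In complex V, 16 of 17 members tested fell in 786-O and none rose, with a median of -0.51. ATP5F1B on chromosome 12 (56638175 to 56646068 on GRCh38) encodes the beta subunit, which carries the catalytic sites. It ranged from 883 to 934 CPM with a median of 911 in the 786-O parental libraries, and from 561 to 629 CPM with a median of 595 in the resistant ones. The 2 groups of 9 libraries lay far apart, and the change was -0.72 ± 0.024 (SE, edgeR adjusted p = 4.02e-23). The alpha subunit gene ATP5F1A, whose product alternates with beta in the same ring, had 380, 394 and 409 CPM as lowest, median and highest parental values and 355, 367 and 403 CPM in resistant libraries. These ranges overlapped, and the change was -0.20 ± 0.024 (adjusted p = 6.44e-09). The central stalk genes ATP5F1C (gamma, -0.40), ATP5F1D (delta, -0.45) and ATP5F1E (epsilon, -0.17) all fell. The F1 head genes thus differed among themselves in size, though not in direction.

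The c subunit of the rotating ring is encoded by 3 genes, ATP5MC1, ATP5MC2 and ATP5MC3, which differ in their import sequence. ATP5MC2 (chromosome 12, 53632726 to 53677408) had lowest, median and highest values of 159, 166 and 175 CPM in 786-O parental and 96.8, 103 and 108 CPM in resistant libraries, a change of -0.80 ± 0.026 (adjusted p = 1.68e-23). ATP5MC1 fell by 0.33 and ATP5MC3 by 0.16 on the log2 scale, the latter with overlapping ranges (188 to 202 and 169 to 211 CPM) and not past the threshold with library totals only (-0.05, adjusted p = 0.123). The make-up of c-ring transcripts therefore shifted. ATP5MC2 gave 34.7% ± 0.694 (SD, n = 9) of c-ring counts in parental and 26.3% ± 1.27 in resistant 786-O libraries, while ATP5MC3 gave 40.6% ± 0.73 and 47.8% ± 1.55. No parental library had under 33.8% from ATP5MC2 and no resistant one above 28.7%.

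All 5 tested genes for the other membrane subunits of complex V fell. ATP5MG, which helps hold the dimer of the enzyme together, had 14.4, 15.7 and 17.0 CPM in parental and 8.19, 9.72 and 12.8 CPM in resistant 786-O libraries (-0.76 ± 0.052, adjusted p = 5.06e-14). It shares 12.5% of its exonic length with other genes. Among them is a gene on the opposite strand with a mean of 56.7 CPM, beside 12.6 CPM for ATP5MG. ATP5MF fell by 0.66 and ATP5MK by 0.58 on the log2 scale. In the peripheral stalk, which keeps the head from turning with the rotor, ATP5PB (-0.51), ATP5PF (-0.56) and ATP5PO (-0.57) fell. Other genes cover 10.3%, 23.1% and 25.4% of their exonic length, in that order. ATP5PD, the remaining stalk gene, was not called (0.06 ± 0.039, adjusted p = 0.17), with 102, 106 and 115 CPM in parental and 110, 116 and 143 CPM in resistant libraries. ATP5PD is the only complex V member tested in 786-O that did not pass, and it shares 19.1% of its exonic length with KCTD2 and another gene on the opposite strand.

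**Figure D2:**
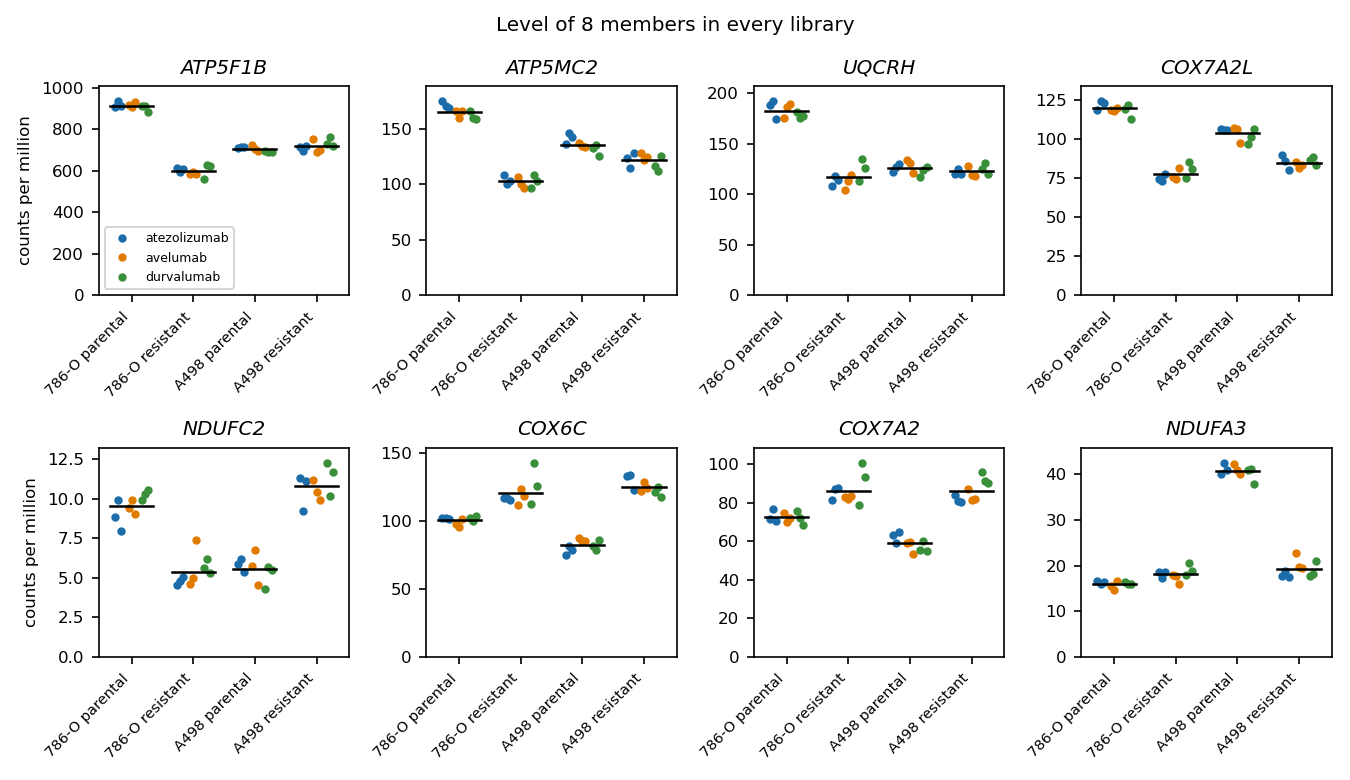
CPM of 8 members in every library, in a panel each, with dots coloured by antibody and a line for the mean of 9. ATP5F1B, ATP5MC2, UQCRH, COX7A2L and NDUFC2 are lower in resistant than in parental 786-O libraries without overlap, COX6C and COX7A2 are higher without overlap, and NDUFA3 differs mainly between A498 parental and the other 3 states.

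In complex I, the NADH dehydrogenase, 28 of 37 members tested fell in 786-O and 3 rose, with a median of -0.27. NDUFC2, a subunit of the membrane arm, had the largest fall. Its values were 7.94, 9.89 and 10.6 CPM in parental and 4.53, 5.02 and 7.39 CPM in resistant libraries, with no overlap (-0.94 ± 0.067, adjusted p = 2.24e-13). NDUFC2 shares 18.1% of its exonic length with other genes, the readthrough gene NDUFC2-KCTD14 among them, at 0.0027 CPM. In the matrix arm, which takes up NADH and carries the iron-sulfur clusters, 12 of 15 fell and 1 rose. NDUFV3, an accessory subunit of the NADH-binding module, had 28.2, 30.1 and 31.5 CPM and then 18.8, 20.3 and 22.1 CPM (-0.67 ± 0.032, adjusted p = 5.88e-19), and NDUFA5 fell by 0.68 on the log2 scale.

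The core matrix arm subunits NDUFV1 and NDUFS1 changed less than the accessory subunits NDUFV3 and NDUFA5, but more than the accessory subunit NDUFS4. Core and accessory subunits were not compared as groups, and NDUFV1 and NDUFS1 were picked after the values were seen. NDUFV1, which binds NADH, changed by -0.23, and NDUFS1, which holds several iron-sulfur clusters, by -0.09. The ranges of NDUFS1 overlapped, with 126 to 136 CPM in parental and 127 to 138 CPM in resistant libraries. NDUFS4, an accessory subunit needed for a stable NADH-binding module, was not called (0.02 ± 0.039, adjusted p = 0.688). The members that rose were NDUFS7, a core subunit that carries the last iron-sulfur cluster (0.10, adjusted p = 0.00736), NDUFA8 (0.08, adjusted p = 0.00976) and NDUFA13 (1.19 ± 0.14), the last with 0.473 to 0.791 CPM in parental and 0.824 to 2.17 CPM in resistant libraries. NDUFS7 shares 49.1% and NDUFA13 21.0% of their exonic length with other genes.

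In complex III, 8 of 9 members fell in 786-O and none rose, with a median of -0.26. UQCRH, the hinge subunit that helps cytochrome c bind, had 174, 182 and 192 CPM in parental and 105, 114 and 135 CPM in resistant libraries. No resistant library reached a parental one, and the change was -0.75 ± 0.031 (adjusted p = 3.18e-19). Its near copy UQCRHL changed by -0.65 and the small subunit gene UQCR10 by -0.56. The large core protein genes fell less, UQCRC1 by 0.26 and UQCRC2 by 0.16, as did UQCRFS1, the Rieske iron-sulfur protein, by 0.18 on the log2 scale. UQCR11 was the member that was not called (-0.04, adjusted p = 0.282).

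Complex IV, cytochrome c oxidase, moved in both directions in 786-O. Of 12 members tested, 5 fell and 4 rose, and the median was -0.06, which became 0.05 with library totals only (5 fell and 5 rose). The largest fall was in COX7A2L, whose product joins complexes III and IV into supercomplexes and is counted here by its name. It had 113, 119 and 124 CPM in parental and 73.4, 75.7 and 85.3 CPM in resistant libraries (-0.73 ± 0.027, adjusted p = 7.59e-22). COX7A2, its paralog and a regular complex IV subunit, went the other way, with 68.2, 72.1 and 76.5 CPM and then 78.6, 83.5 and 101 CPM (0.15 ± 0.036, adjusted p = 7.73e-04). Neither pair of ranges overlapped.

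The other falls were COX4I1 (-0.28), COX7B (-0.40), COX7C (-0.21) and COX6A1 (-0.19). COX6C, another small subunit, rose from 95.7, 101 and 103 CPM to 112, 117 and 143 CPM (0.15 ± 0.032, adjusted p = 1.03e-04). COX5B (0.10, adjusted p = 0.00347) and COX6B1 (0.08, adjusted p = 0.00777), the subunit at the contact between monomers, rose by less. COX5A, COX8A and NDUFA4 were not called. COX8A and NDUFA4 changed by -0.05 and -0.06 and passed the threshold in some alternatives, for example without the low-count filter (adjusted p = 0.0294 and 0.00494).

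**Figure D3:**
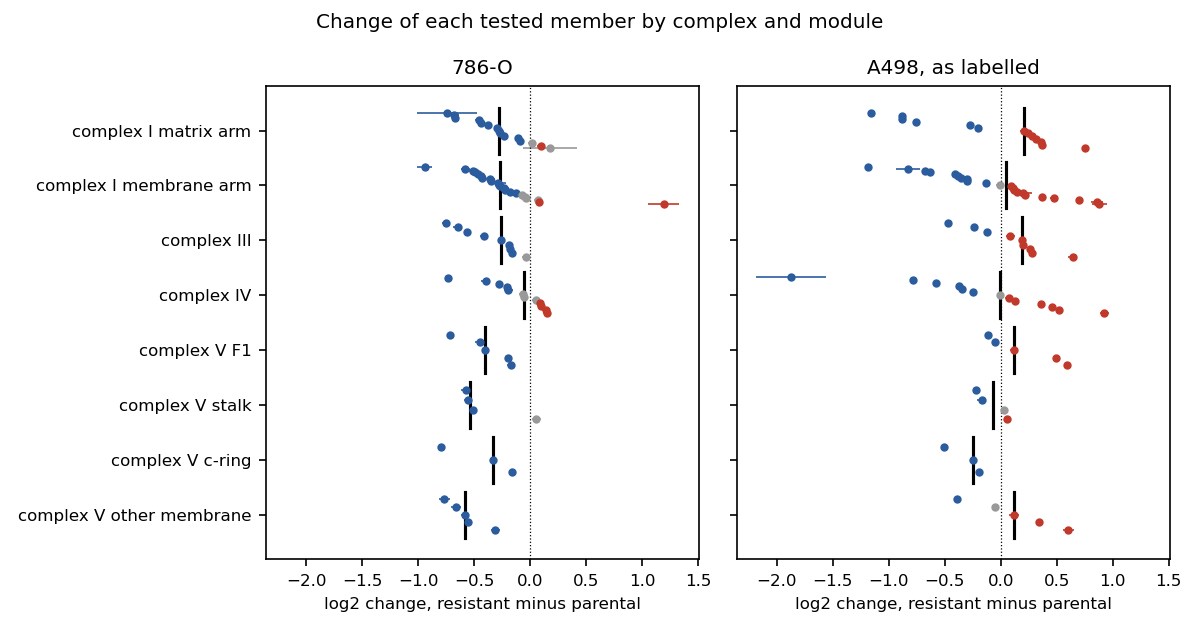
Log2 change between resistant and parental libraries for each member tested apart from readthrough genes, by complex and module. Panels separate 786-O and A498 as labelled, bars give the SE and a black line the median of each module. In 786-O the blue points, lower at an adjusted p under 0.05, make up 16 of 17 in complex V but 5 of 12 in complex IV, whereas in A498 as labelled blue and red points are mixed in every complex.

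For each motif, promoter stretches are shown for the 2 lowest and 2 highest 786-O changes among called members of at least 5 CPM with the motif wholly before the start (9 members for NRF1, 12 for ETS and 4 for YY1), because binding sites of NRF1, of GABPA and other ETS factors, and of YY1 are known features of many nuclear respiratory genes. RefSeq windows on GRCh38.p14, from 250 bases before to 50 bases after the start, were found for 67 of the 84 members and for 14671 genes in all. Motifs were searched on both strands, with no overlap between them required or excluded. The NRF1 motif, whose form with 1 free base is seen in the capitals of the first 4 stretches, was in 15 of 67 member windows (22.4%) and 10.1% of all windows. CCGGAAG, the ETS core, was in 19 (28.4%) and 17.2%, and AAGATGG, the YY1 core, in 17 (25.4%) and 8.02%. At least 1 of these was in 41 member windows (61.2%) and in 30.3% of all. Each stretch below is 30 bases, 5′ to 3′ on the strand of the gene, with the motif or its reverse complement in capitals.
NDUFA9, NRF1, chr12:4649024-4649053, plus strand: ttcttggttaGCGCTTGCGCagacaggcga
ATP5PO, NRF1, chr21:33915809-33915838, minus strand: acgccaacgcGCGCGTGCGCccttgcgcgt
NDUFB4, NRF1, chr3:120596263-120596292, plus strand: ctctgctaacGCGCAGGCGCacttcctgaa
UQCRFS1, NRF1, chr19:29213163-29213192, minus strand: gcgcctcctcGCGCCTGCGCcgtggttgga
UQCRH, ETS, chr1:46303640-46303669, plus strand: gagtgtgccgcaCTTCCGGccagatcgccg
ATP5MK, ETS, chr10:103396618-103396647, minus strand: agtgcaattCTTCCGGAAGtgtgggcgggc
COX6B1, ETS, chr19:35648293-35648322, plus strand: agtccccacctctctcagCTTCCGGctggt
COX5B, ETS, chr2:97646013-97646042, plus strand: agaagcccgcccCCGGAAGtccctcctgtc
ATP5MG, YY1, chr11:118401445-118401474, plus strand: tgctctctaataCCATCTTttcatatccac
NDUFA5, YY1, chr7:123557934-123557963, minus strand: tttttctcttttAAGATGGgcggggcagag
ATP5PF, YY1, chr21:25735094-25735123, minus strand: ttaggcgaagaaAAGATGGcggaggctgtg
COX7C, YY1, chr5:86617911-86617940, plus strand: cctcaaggctccgccccatttcCCATCTTt

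The stretches were picked for the lowest and highest changes in 786-O, so the gaps among them follow from that choice. NDUFA9 (-0.58) and ATP5PO (-0.57) share the NRF1 motif with NDUFB4 (-0.23) and UQCRFS1 (-0.18), and UQCRH (-0.75) and ATP5MK (-0.58) share the ETS core with COX6B1 (0.08) and COX5B (0.10), which rose. The median change was -0.28 with and -0.27 without the NRF1 motif, -0.19 with and -0.29 without CCGGAAG, and -0.31 with and -0.23 without AAGATGG. A match describes the letters in the window and is no measure of binding.

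On 3 of the chromosomes with 4 or more members tested, the members' median in 786-O was -0.49 or lower. It was -0.58 over 5 members on chromosome 12, ATP5F1B and ATP5MC2 among them, beside -0.29 over all 1032 genes tested there. On chromosome 1 the members' median was -0.51 and that of all genes 0.04, and on chromosome 7 the values were -0.49 and -0.02. Of the 8 such chromosomes, chromosome 12 was the one where the median of all genes lay below -0.1, and its part in the members' changes was not tested.

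In A498 as labelled, the members split about evenly. Of 75 tested, 37 rose (49.3%) and 34 fell (45.3%) between libraries labelled resistant and parental, beside 44.2% and 44.0% of all genes tested. The median change was 0.03. Under all 3 antibodies 26 rose and 28 fell, beside 35.4% and 35.4% of all genes, and the ranges did not overlap for 29 that rose and 21 that fell, beside 36.5% and 29.8% of all genes. The shares among the members were near those of all genes. The summed level was 6829 ± 165 CPM (SD, n = 9) in parental libraries and 7114 ± 175 CPM in those labelled resistant, but over TMM library sizes the order turned, with 6947.5 and 6788 CPM.

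Among members with at least 5 CPM in the higher state, the largest falls in A498 as labelled were in complex I. Below that level, COX6B2 changed by -1.87 ± 0.311, at means of 0.335 and 0.0918 CPM. NDUFA3, a small membrane arm subunit, had 37.8, 41.0 and 42.5 CPM in parental libraries and 17.5, 18.8 and 22.8 CPM in those labelled resistant (-1.18 ± 0.035, adjusted p = 8.44e-33). NDUFV3 (-1.16) and NDUFS4 (-0.88) were also among them. In the other direction, COX8A, a small complex IV subunit, had 32.9, 40.0 and 42.6 CPM and then 73.7, 77.6 and 85.2 CPM (0.93 ± 0.042, adjusted p = 4.5e-14). COX8A shares 34.5% of its exonic length with another gene. NDUFC2 (0.88), NDUFA9 (0.86), which fastens the matrix arm to the membrane arm, and NDUFS6 (0.76) also rose. None of these pairs of ranges overlapped.

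By complex, 18 members rose and 16 fell of 35 tested in complex I of A498 as labelled, 6 and 3 of 9 in complex III, 6 and 6 of 13 in complex IV, and 7 and 8 of 17 in complex V. The medians of complexes IV and V, -0.01 and -0.05, changed sign with library totals only, to 0.08 and 0.04. ATP5F1A had 260, 264 and 276 CPM in parental libraries and 407, 427 and 440 CPM in those labelled resistant (0.59), while ATP5F1B overlapped, with 690 to 722 and 691 to 762 CPM, and changed by -0.05 (adjusted p = 0.0287). COX4I1 fell from 358, 376 and 384 CPM to 253, 262 and 285 CPM (-0.58). All 3 c-ring genes fell, ATP5MC1 by 0.51, ATP5MC2 by 0.24 and ATP5MC3 by 0.19 on the log2 scale. COX7B, not called in A498 (-0.01, adjusted p = 0.752), passed the threshold in the other direction with library totals only (0.077, adjusted p = 0.00572).

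Of the 74 members tested in both lines, 27 fell in both, 4 rose in both, 26 fell in 786-O and rose in A498 as labelled, and 3 did the opposite. The change itself differed between the lines for 67 of 76 members in the fit of all 36 libraries. It was lower in 786-O for 51 members and higher for 16, beside 40.6% and 39.8% of all genes tested. The largest differences on the negative side were NDUFC2 (-1.84 ± 0.104), NDUFA9 (-1.45) and ATP5MG (-1.38). NDUFA3 (1.24), NDUFS4 (0.88) and COX7C (0.57) lay on the other side. These differences rest on the 9 libraries labelled A498 resistant, and without those libraries no difference in the change between lines can be computed.

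**Figure D4:**
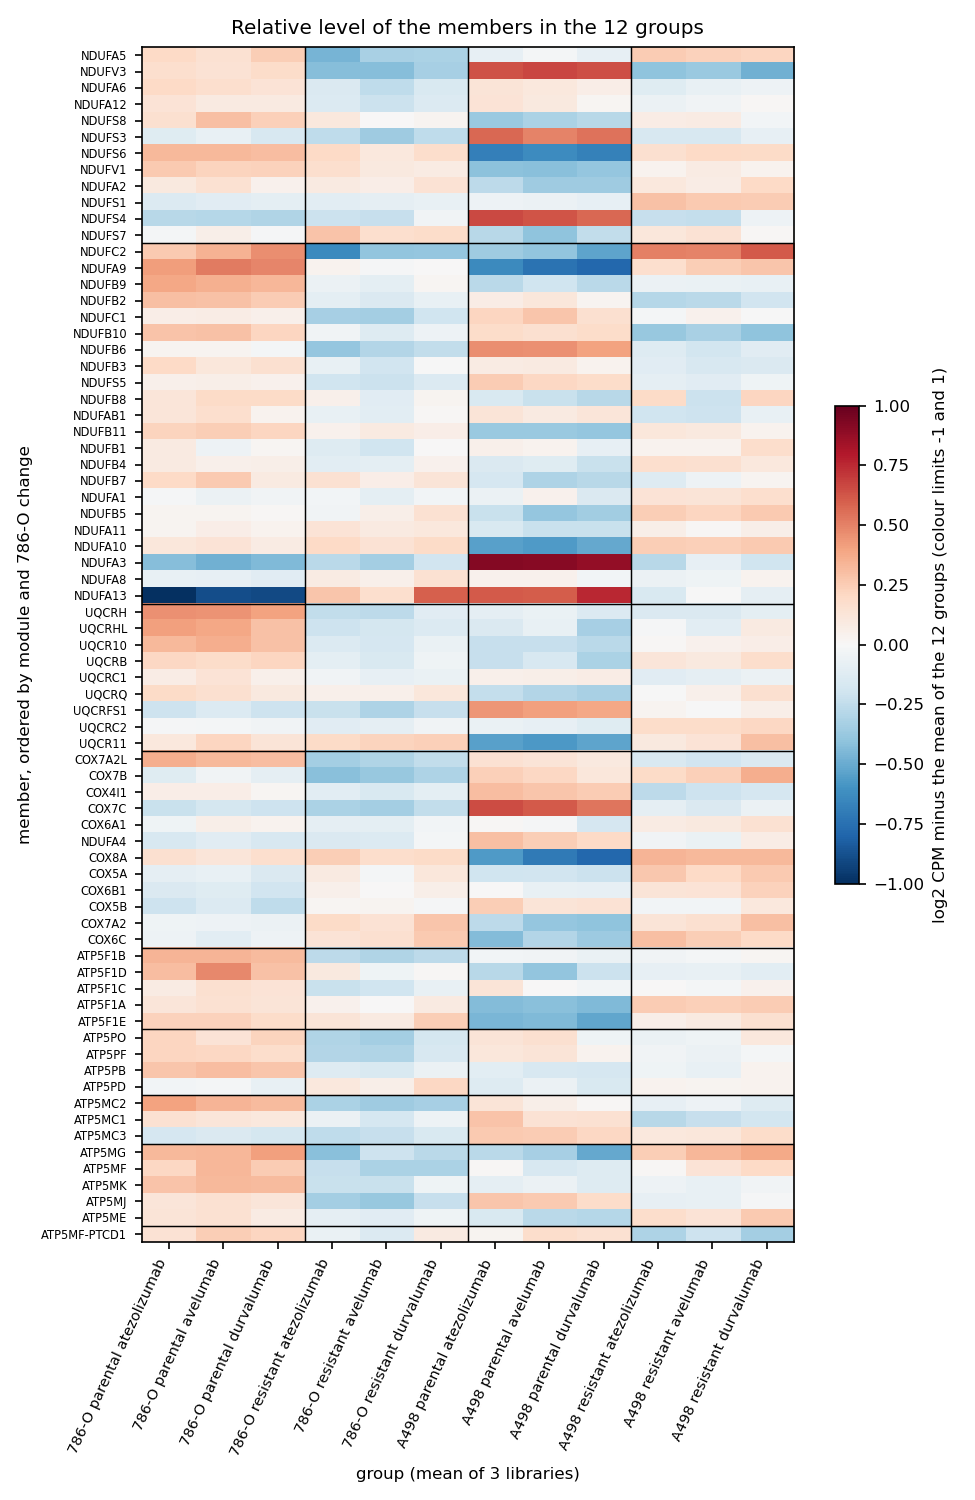
Log2 of the mean CPM of each of the 12 groups minus the mean over the 12 groups, for 73 of the members with at least 1 CPM, with colours limited to -1 and 1. The A498 parental columns stand apart from the other 9, and the columns labelled A498 resistant resemble those of 786-O.

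Members and all genes alike were called more often between the parental lines than between the resistant states. In parental 786-O minus parental A498, 50 of 76 members were higher and 17 lower, beside 43.5% and 41.7% of all genes, with a median of 0.22. Complex V (14 higher and 1 lower of 17) and complex III (8 and 1 of 9) were mostly higher in 786-O, whereas complex IV split 6 and 6 of 13. NDUFA9 (1.25 ± 0.045), NDUFS6 (1.04 ± 0.035), COX8A (0.89) and NDUFC2 (0.85) were highest in 786-O among members with at least 5 CPM. NDUFS6, a zinc-binding subunit, had 44.5, 46.9 and 49.2 CPM in A498 and 87.7, 94.0 and 97.2 CPM in 786-O parental libraries. NDUFA3 (-1.29 ± 0.036), NDUFS4 (-0.84), COX7C (-0.74) and NDUFS3 (-0.59) were lowest. COX7C had 126, 135 and 141 CPM in A498 and 74.4, 76.4 and 78.2 CPM in 786-O parental libraries.

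COX6B2, a form of COX6B1 known from testis, had a log2 difference of -3.54 ± 0.375 between the parental lines, but at 0.152 CPM on average over all libraries. Between 786-O resistant libraries and those labelled A498 resistant, 15 of 76 members were higher in 786-O and 38 lower, beside 33.1% and 32.8% of all genes. The median was -0.07, and NDUFC2 (-0.99 ± 0.074), COX7B (-0.61), ATP5MG (-0.59) and NDUFA5 (-0.58) were lowest. Without the low-count filter, 25 were higher. Libraries labelled A498 resistant minus parental 786-O gave 12 members higher and 52 lower, beside 41.2% and 38.3% of all genes, and 27 higher and 38 lower with library totals only. By name, this last comparison crosses lines. Shares of all genes here are those of the main setting, and none are given for the alternatives.

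Few members passed the threshold between antibodies. Of the 12 antibody pairs within cell states, 3 had any member past the threshold. In A498 parental libraries, avelumab minus atezolizumab gave 4 members lower and none higher of 75 (1.68% and 1.71% of all genes). They were ATP5MC1 (-0.15, adjusted p = 0.0101), NDUFB7 (-0.15), ATP5F1C (-0.13) and ATP5MF (-0.18). In the same cells durvalumab minus atezolizumab gave 3 lower and none higher (1.02% and 1.78% of all genes), ATP5F1C (-0.17, adjusted p = 0.0078), ATP5MC1 (-0.15) and COX7C (-0.13). Without A498 parental atezolizumab replicate 3, which both pairs share, no member passed in either. In 786-O parental libraries avelumab minus atezolizumab gave 1 member higher and none lower (2.71% and 1.63% of all genes), NDUFS8, a core iron-sulfur subunit of complex I (0.13, adjusted p = 0.0449), which did not pass with DESeq2 (its adjusted p = 0.0804) or without any 1 of the 6 libraries compared or 786-O parental durvalumab replicate 2. In the other 9 pairs edgeR and DESeq2 both called 0 members, with 2 to 22 members at an unadjusted p under 0.05 in each by edgeR. Few genes of any kind passed there. Durvalumab minus avelumab called 0.0599% of all genes higher and 0.0% lower in A498 parental libraries, 0.0% and 0.0% in 786-O parental ones, 0.00571% and 0.0114% in those labelled A498 resistant and 0.0424% and 0.344% in 786-O resistant ones. Durvalumab minus atezolizumab called 1.29% higher and 0.535% lower in 786-O parental, 0.00571% and 0.0% in A498 resistant as labelled, and 0.0% and 0.0% in 786-O resistant libraries. Avelumab minus atezolizumab called 0.842% and 0.365% in 786-O resistant libraries and 0.0% and 0.0% in those labelled A498 resistant.

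Whether the resistance change depended on the antibody was tested in 6 contrasts added after the data were seen, of which 1 had members past the threshold. For avelumab minus atezolizumab and durvalumab minus avelumab in A498 edgeR and DESeq2 called 0 members, with 9 and 26 at an unadjusted p under 0.05, where edgeR called 0.206% of all genes higher and 0.123% lower in the former and 0.0% and 0.0154% in the latter. In A498 as labelled, 7 of 75 members had a higher change under durvalumab than under atezolizumab and none a lower one, beside 0.488% and 0.499% of all genes, and the count ran from 2, without A498 resistant durvalumab replicate 2, to 16, without replicate 3. COX7A2 had 63.4, 59.2 and 64.6 CPM in the 3 A498 parental atezolizumab libraries and 84.0, 81.0 and 80.5 CPM in those labelled resistant. Under durvalumab it had 55.3, 60.0 and 55.0 CPM and 95.7, 91.4 and 90.3 CPM. The gap between states was thus wider under durvalumab in these libraries, with a change of 0.29 for atezolizumab, 0.46 for avelumab and 0.63 for durvalumab, and a difference of 0.34 ± 0.066 (adjusted p = 0.00653, from 0.00079 to 0.036 over the alternatives).

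COX7B (0.32 ± 0.065), NDUFB7 (0.29), UQCRQ (0.28), ATP5MC1 (0.25), COX5B (0.25) and ATP5PO (0.36) were the other members past the threshold there. COX7B changed by -0.15 under atezolizumab and by 0.18 under durvalumab. Its difference missed the threshold without A498 parental durvalumab replicate 1 (adjusted p = 0.0507), that of NDUFB7 without A498 resistant durvalumab replicate 2 (adjusted p = 0.0841), and that of UQCRQ without any 1 of 3 libraries. In 786-O, the 3 such contrasts had 0 members past the threshold with edgeR, with 4, 8 and 16 at an unadjusted p under 0.05, and DESeq2 called 1, NDUFS8, for avelumab against atezolizumab (-0.25). Of all genes, 0.454% were higher and 0.743% lower in the contrast of avelumab with atezolizumab, 0.00516% and 0.0465% in that of durvalumab with atezolizumab, and 0.00516% and 0.0413% in that of durvalumab with avelumab. Without 786-O resistant durvalumab replicate 1, 19 members passed for durvalumab against avelumab. The share of all genes called in that fit is not given, so this count has no background beside it.

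**Figure D5:**
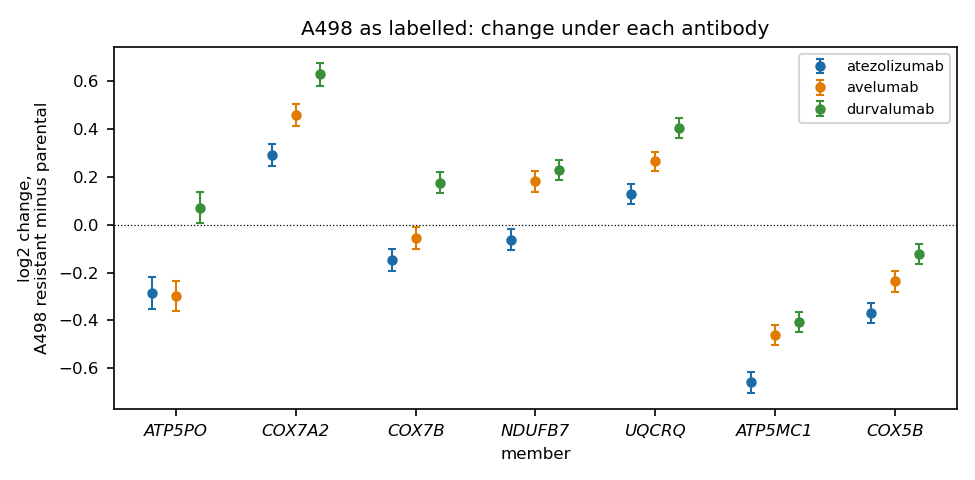
Log2 change between libraries labelled A498 resistant and A498 parental under each antibody, with the SE, for the 7 members whose change differed between durvalumab and atezolizumab. COX7A2 rises from 0.29 to 0.63 and COX7B from -0.15 to 0.18 between atezolizumab and durvalumab.

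Genes of the same pathway outside the naming rule were read from lists, whose counts stand beside 40.2% of all genes lower and 43.6% higher in 786-O, and 44.0% lower and 44.2% higher in A498 as labelled. All 4 complex II genes fell in 786-O (median -0.35), SDHD, which anchors the complex in the membrane, most (-0.82 ± 0.053). CYCS, the gene of cytochrome c, fell from a mean of 196 to 111 CPM (-0.93 ± 0.039, adjusted p = 2.06e-15), and CYC1, the haem-bearing subunit of complex III, changed by -0.07 (adjusted p = 0.0143). In A498 as labelled, 3 complex II genes rose and 1 fell, CYC1 rose (0.28) and CYCS was not called. SDHD rose there by 0.58.

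Most assembly factor genes for complexes I, III and IV were lower in resistant 786-O libraries, where 40.2% of all genes were. Of the complex I factors 14 of 16 fell and none rose (median -0.37), NDUFAF6 by 0.90 and NDUFAF4 by 0.79 on the log2 scale. Of the complex III factors 8 of 9 fell and 1 rose, LYRM7, which chaperones the Rieske protein, by -0.95, and BCS1L, which inserts it, by -0.78. Of the complex IV factors 19 of 25 fell and 5 rose, SURF1 most (0.86 ± 0.031), which acts early in assembly. Of the 5 complex V factors and inhibitors, 2 fell and 1 rose. In A498 as labelled, 5 complex I factors rose and 9 fell, and 10 complex IV factors rose and 13 fell, beside 44.2% and 44.0% of all genes, with HIGD1A at 1.10 there and at -0.68 in 786-O.

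Among 15 transcription factors and coactivators of these genes, 10 fell and 3 rose in 786-O, beside 40.2% and 43.6% of all genes. PPARGC1A, a coactivator known to raise respiratory genes, rose from a mean of 1.70 to 8.17 CPM (2.17 ± 0.072), and PPARGC1B rose by 1.31, while TFAM, which packs and transcribes mitochondrial DNA, fell by 0.87 on the log2 scale. PPARGC1A also rose in A498 as labelled, from 0.62 to 16.1 CPM (4.60 ± 0.081). Of 14 tested markers of mitochondrial mass outside the chain, 13 fell and 1 rose in 786-O (median -0.54). HSPD1, a mitochondrial chaperone, changed by -0.98 and the phosphate carrier SLC25A3 by -0.86, whereas SLC25A4, an ADP/ATP carrier, rose by 0.97. In A498 as labelled 10 of these markers fell and 2 rose.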

How the data were processed

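RNA was sequenced from 36 libraries in 12 groups of 3. The values the authors deposited are read counts per gene without normalization, in a single table. The submitters' processing notes name featureCounts 1.6.3, HISAT2 2.1.0, Trimmomatic 0.36.6 and bcl2fastq 2.19.0, with GRCh38, and per the labels' protocols the kit keeps strand. Which annotation release and strand option the counting used is not given in the sources used here. Gene coordinates and overlaps came from GENCODE 29 on GRCh38, and all columns of the table were used. The members and the gene lists were chosen with earlier results of these data known.

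Tests on the counts used R 4.3.3 and edgeR 4.0.16 (filterByExpr with count minimum 10 and total minimum 15, TMM, robust quasi-likelihood, group means), with p-values adjusted by Benjamini-Hochberg within each contrast over all genes tested. Antibodies were compared from the 9 libraries of a state, resistance from the 18 of a line, and lines from all 36. A standard error is the log2 change over the root of its F statistic. By the rule for named genes, these were the 4 highest and 4 lowest changes among called members of at least 5 CPM in the higher state (3 and 3 for the difference between lines), up to 4 members per antibody pair, the isoform pairs, and up to 3 genes per other list. All other members named, ATP5F1B, ATP5F1A, the core subunits and those not called or with low counts among them, were added for their role or their values after the values were seen. The values of 1 member are not reported here, though it is included in counts, sums and medians. The tests were checked on simulated counts.

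No 2 libraries of a group were copies, since the lowest mean chi-square per gene between such libraries was 1.63. Reads carry no molecular identifiers, so depth gives counting precision only. Alternatives were edgeR with RLE factors or library totals only, DESeq2 1.42.0, no low-count filter, a count minimum of 50, a replicate block and leaving out each library. Promoter windows were taken from RefSeq, and figures were drawn with matplotlib 3.10.9.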

Additional observations from a re-analysis of the deposited data

Results flagged for a closer look

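Among 44 groups of 9 libraries checked for a library far from the others, where chance gives about 1 in 20, both groups found were complex V sums in 786-O resistant libraries. The number found is about what chance alone gives. The stalk genes of complex V summed to 431 CPM in the highest library against a median of 358 CPM, and the genes for the other membrane subunits to 273 CPM against a median of 237 CPM. In both, the library is durvalumab replicate 2, which also had the highest summed level of all members in that state, so the 431 and 273 CPM are not independent.

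The change between resistant and parental libraries differed between the lines in the edgeR test of that difference. It was higher in 786-O than in A498 as labelled for 16 members and lower for 51. The named members were NDUFC2 (-1.84), NDUFA9 (-1.45) and ATP5MG (-1.38) on the lower side and NDUFA3 (1.24), NDUFS4 (0.88) and COX7C (0.57) on the higher side. Within A498 as labelled, the change was higher under durvalumab than under atezolizumab for COX7A2 (0.34), COX7B (0.32), NDUFB7 (0.29) and UQCRQ (0.28). All of these rest on the 9 libraries labelled A498 resistant, whose line is in doubt.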

How the results depend on the processing

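Of the alternatives run for the named members, 2505 kept direction and side of the threshold, 58 lost the call, 30 gained it and 1 turned, COX7B in A498 (0.077 with library totals only, -0.01 otherwise). With library totals only, members higher in 786-O resistant cells numbered 12 averaged, 10 under atezolizumab and 7 under avelumab, 27 were higher in the libraries labelled A498 resistant than in parental 786-O, and 1 rose in the A498 change for durvalumab against avelumab. With the count minimum of 50, 5 rose in 786-O under atezolizumab, and in the A498 change 1 rose for avelumab and 11 for durvalumab against atezolizumab. Without a filter, the A498 change had 1 and 11 higher in those contrasts and 1 for durvalumab against avelumab, the 786-O change had 2 lower for avelumab against atezolizumab, and 25 were higher between the resistant states. Also without a filter, A498 parental libraries had 7 lower for durvalumab against atezolizumab and 1 higher and 3 lower for durvalumab against avelumab, and 786-O parental libraries 1 lower for durvalumab against avelumab. DESeq2 gave 1 lower for avelumab against atezolizumab in the 786-O change and 0 higher for that pair in 786-O parental libraries. Summed levels over TMM sizes were 6788 CPM in A498 resistant and 8109 CPM in 786-O parental libraries, and without overlapping genes 5122.5 and 5119 CPM in A498 parental and resistant and 5479.5 and 4664 CPM in 786-O. Shares of all genes under these alternatives are not given, so the counts have no background beside them. The cause of these shifts was not tested.

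Leaving out single libraries gave 7 to 11 members higher in 786-O averaged, 2 to 5 under atezolizumab and 5 to 13 under durvalumab. In the 786-O change it gave 0 to 2 lower for avelumab against atezolizumab, and 0 to 8 and 0 to 19 higher for durvalumab against atezolizumab and avelumab. In the A498 change it gave 0 to 3 higher for avelumab against atezolizumab, 2 to 16 higher and 0 to 1 lower for durvalumab against atezolizumab, and 0 to 6 higher and 0 to 1 lower for durvalumab against avelumab. In A498 parental libraries it gave 0 to 1 higher and 0 to 6 lower for avelumab against atezolizumab, 0 to 9 lower for durvalumab against atezolizumab and 0 to 5 lower for durvalumab against avelumab. In libraries labelled A498 resistant it gave 0 to 3 higher and 0 to 1 lower for durvalumab against atezolizumab and 0 to 2 higher and 0 to 2 lower for durvalumab against avelumab. In 786-O parental libraries it gave 0 to 1 higher for avelumab against atezolizumab and 0 to 1 lower for durvalumab against atezolizumab. In 786-O resistant libraries it gave 0 to 1 lower for avelumab against atezolizumab and 0 to 23 higher for durvalumab against avelumab, the last without durvalumab replicate 1. Shares of all genes in these fits are not given, so the counts show only how far the calls depend on single libraries.

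The replicate numbers did not pair the libraries. Correlations of same-numbered libraries ran from -0.35 to 0.34 over 36 pairs, 7 were over 0.1, and 14 of 36 libraries matched best with their own number. With the replicate block, 58 members fell and 7 rose in 786-O, 2 were lower for avelumab against atezolizumab in A498 parental libraries and 0 were higher for that pair in 786-O parental ones.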
